A study of Mus musculus with 6 samples.

Results

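The 10 genes described here encode surface receptors through which myoblasts recognise and hold on to each other before they fuse. They are the cadherins Cdh15 and Cdh2, the immunoglobulin-type receptors Cdon, Boc and Neo1, the junctional adhesion molecules Jam2 and Jam3, the nephrin relative Kirrel, the adhesion molecule Mcam and the homophilic adhesion protein Ninj1. They were chosen by name, and all 10 were found among the 21778 gene symbols of the deposited count table; all 10 also passed the filter on low counts, which kept 14835 genes. Poly(A) RNA was sequenced from cultured mouse myoblasts, the single-nucleus cells that fuse into muscle fibres, 24 h after a change to differentiation medium with 2% horse serum (day 1). The 3 Hdac11 knockout (KO) libraries came from Hdac11-/- C57BL/6 mice, in which exon 3 of Hdac11, a histone deacetylase gene, had been floxed and was removed by CRE recombinase under the SOX2 promoter, a total rather than a muscle-restricted knockout. The 3 wild-type (WT) libraries came from littermates of the same strain. All cells were sorted from hindlimb muscle as double positive for alpha7-integrin and CD34, and plated at 26000 cells per cm2 on Matrigel. Neither the age of the animals nor the number behind each culture is stated in the labels. The design text calls the libraries biological replicates. The p-values set the difference between the groups against the spread between libraries. Whether that spread is between animals or between cultures cannot be told from the labels.

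Myoblasts that leave the cell cycle adhere, align and then fuse into multinucleated myotubes. Cadherins make the calcium-dependent contacts and anchor them to actin through catenins. Cdon and Boc sit beside the cadherins in the same membrane and pass the contact signal to p38 MAP kinase and the myogenic transcription factors, and they also bind Hedgehog proteins. Neogenin, the product of Neo1, binds netrins and repulsive guidance molecules. Jam2 and Jam3 bind each other across cell contacts, a pairing shown to be needed for myoblast fusion in zebrafish, and the fly relatives of Kirrel are the receptors by which fusing myoblasts find each other in Drosophila.

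The promoters of 3 of these genes are shown because the comparisons turn on them: Kirrel was the one receptor gene that any test called, Neo1 was the one whose 3 KO libraries all lay below all 3 WT libraries, and Cdh15 was the most highly expressed. Each runs 5′ to 3′ on the gene's strand over 300 bases, from 250 before a transcript start listed by RefSeq to 50 after it, on GRCm38.p6. Capitals mark E-boxes (CANNTG) and GC boxes (GGGCGG or its complement CCGCCC), searched on both strands. The Kirrel window is chr3:87174488-87174787 (minus strand), the Neo1 window chr9:59036392-59036691 (minus strand) and the Cdh15 window chr8:122848124-122848423 (plus strand).
Kirrel: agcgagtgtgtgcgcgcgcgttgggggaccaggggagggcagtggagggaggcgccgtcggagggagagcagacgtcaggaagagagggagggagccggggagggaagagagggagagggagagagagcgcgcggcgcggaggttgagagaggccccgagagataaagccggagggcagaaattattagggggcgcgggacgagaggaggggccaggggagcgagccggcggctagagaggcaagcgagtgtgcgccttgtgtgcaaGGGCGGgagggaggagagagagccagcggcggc
Neo1: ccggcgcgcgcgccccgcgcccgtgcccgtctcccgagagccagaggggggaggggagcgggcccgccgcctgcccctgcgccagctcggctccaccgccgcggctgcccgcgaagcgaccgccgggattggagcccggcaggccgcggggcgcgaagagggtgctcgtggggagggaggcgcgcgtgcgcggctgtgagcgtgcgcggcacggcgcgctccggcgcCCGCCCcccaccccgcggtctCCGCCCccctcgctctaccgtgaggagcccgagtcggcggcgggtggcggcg
Cdh15: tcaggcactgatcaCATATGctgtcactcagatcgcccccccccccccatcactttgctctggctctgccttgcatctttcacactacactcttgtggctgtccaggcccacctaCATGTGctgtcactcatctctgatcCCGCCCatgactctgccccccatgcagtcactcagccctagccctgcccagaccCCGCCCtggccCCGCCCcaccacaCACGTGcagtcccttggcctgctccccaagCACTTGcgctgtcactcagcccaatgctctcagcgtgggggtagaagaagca
The Kirrel and Neo1 windows held 69.3% and 82.7% G or C, with 28 and 54 CpG dinucleotides, whereas the Cdh15 window held 61.3% with 7 CpG dinucleotides. Over all 32851 promoters of this length the medians were 52.7% and 7. Cdh15 carried 4 E-boxes and 3 GC boxes, Kirrel no E-box and 1 GC box, and Neo1 no E-box and 2 GC boxes. The starts used for Kirrel and Neo1 lie inside the outermost annotated end of each gene, so most of each window lies within the gene. An E-box occurs in 72.3% and a GC box in 35.7% of all such promoters, and a match describes letters, not binding.

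Total counts were 16742457 to 20287743 in KO libraries and 19673388 to 22835394 in WT libraries. Each group held 1 library with a male and 2 with a female pattern of Xist and Y-linked counts. Levels are CPM, counts normalised for library size, with the sizes scaled by TMM, which corrects for the share of counts taken by a few genes. Hdac11 was at 33.5, 76.4 and 30.2 CPM in KO libraries and 63.0, 79.5 and 73.8 CPM in WT libraries. The library labelled KO replicate 2 thus lay within the WT range, against its label, and the second value of every KO triplet below belongs to it. The fold change of Hdac11 was -0.63 on the log2 scale (SE 0.35, adjusted p = 0.380, edgeR); since exon 3 alone was deleted, counts over the whole gene may hold transcripts of the deleted allele. Myoblast markers (Pax7, Myf5, Myod1, Itga7, Cd34 and Des) summed to 3340 to 3788 CPM in KO libraries and 4660 to 5155 CPM in WT libraries. Itga7 and Des carried that lower sum (log2 fold changes -0.50 and -0.88), while Pax7 and Cd34 went the other way: Pax7 was at 82.3, 108.8 and 127.3 CPM in KO libraries and 54.6, 69.7 and 77.0 CPM in WT libraries. Cd34, on which the cells were sorted, was at 11.2, 3.18 and 17.7 CPM in KO libraries and 1.77, 2.56 and 0.582 CPM in WT libraries (log2 fold change 2.70, DESeq2 adjusted p = 0.00215). Of the fibroblast, endothelial, pericyte, Schwann cell and immune marker lists, fibroblast markers were higher in every KO library (627 to 770 CPM, against 332 to 542 CPM in WT libraries), with Col3a1 giving 99.2% of that sum; among the others, Ly6a was lower in every KO library (log2 fold change -1.55) and Col1a1 had a log2 fold change of -0.88. Schwann cell markers were lower in every KO library (150 to 413 CPM, against 427 to 863 CPM in WT libraries), with Erbb3 giving 97.7%, whereas Mbp was higher in every KO library (log2 fold change 1.35, DESeq2 adjusted p = 0.0124). Immune markers summed to 6.67 to 8.63 CPM in KO libraries and 5.68 to 16.4 CPM in WT libraries.

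Differentiating myoblasts of both genotypes expressed all 10 receptor genes, at levels that fell into 3 tiers. Levels of different genes were compared as CPM per kilobase of the longest coding transcript. Cdh15 (M-cadherin) led with 216 ± 56.3 in KO and 294 ± 70.2 in WT libraries (SD, n = 3 each), followed by Cdh2 (N-cadherin) with 145 ± 21.5 in KO and 162 ± 9.36 in WT, Jam3 with 133 ± 38.8 in KO and 174 ± 52.9 in WT, and Cdon with 89.2 ± 24.6 in KO and 88.2 ± 23.5 in WT. The lowest library of these 4 genes stood at 60.9 CPM per kilobase. Jam2, Mcam, Kirrel, Neo1 and Ninj1 formed the middle tier, between 7.39 and 47.3 CPM per kilobase in single libraries. Boc was lowest, at 2.25 ± 0.822 in KO and 1.72 ± 0.435 in WT (SD, n = 3 each), with no library above 3.13. Neighbours within a tier overlapped over the libraries, while no library of one tier reached into the next. In bulk RNA, fewer expressing cells and less RNA per cell cannot be told apart.

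**Figure D1:**
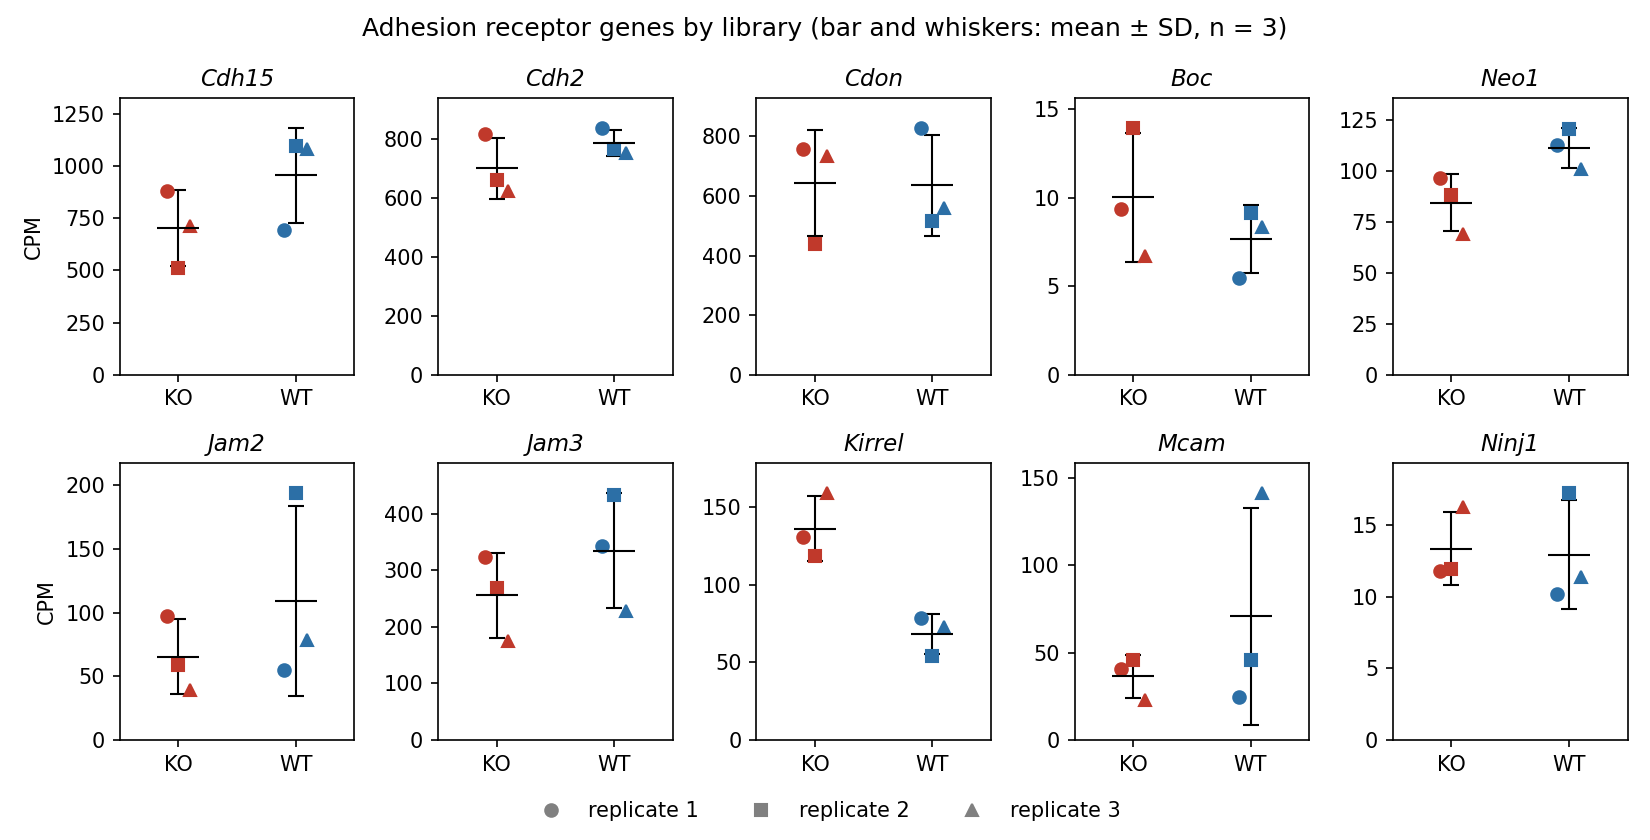
CPM of each receptor gene in the 3 KO and 3 WT libraries; points are libraries, with the marker shape giving the replicate number, and lines are the mean ± SD (n = 3). Kirrel is the gene whose KO points all lie above the WT points, Neo1 the gene whose KO points all lie below them, and Mcam and Jam2 each have a WT library far above the other libraries.

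The question put by the design was whether loss of Hdac11 changed expression. None of the 10 receptor genes passed an adjusted p of 0.05 in edgeR's quasi-likelihood test, where the share of all tested genes that passed was also 0%. Kirrel was higher in KO libraries by DESeq2, 1 of 10 receptor genes, where 4.35% of all 14142 genes with a DESeq2 adjusted p were called higher; no receptor gene was called lower, against 2.28% of all genes. In edgeR 2 of 10 receptor genes had an unadjusted p under 0.05, as did 17.7% of all tested genes. These were Kirrel, higher, beside 9.88% of all genes in that direction, and Neo1, lower, beside 7.83%. The same pair were the genes whose groups did not overlap: all KO libraries lay above all WT libraries for 1 of 10 receptor genes and for 13.2% of all genes, and below them for 1 of 10 and for 10.2%. These shares were near the background. Fold changes were positive for 4 and negative for 6 of the 10, with a median of -0.28 on the log2 scale, against -0.01 over all tested genes, 49.2% of which were positive. An exact permutation test of 3 libraries against 3 cannot go below p = 0.1, the value reached by both Kirrel and Neo1 (two-sided).

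**Figure D2:**
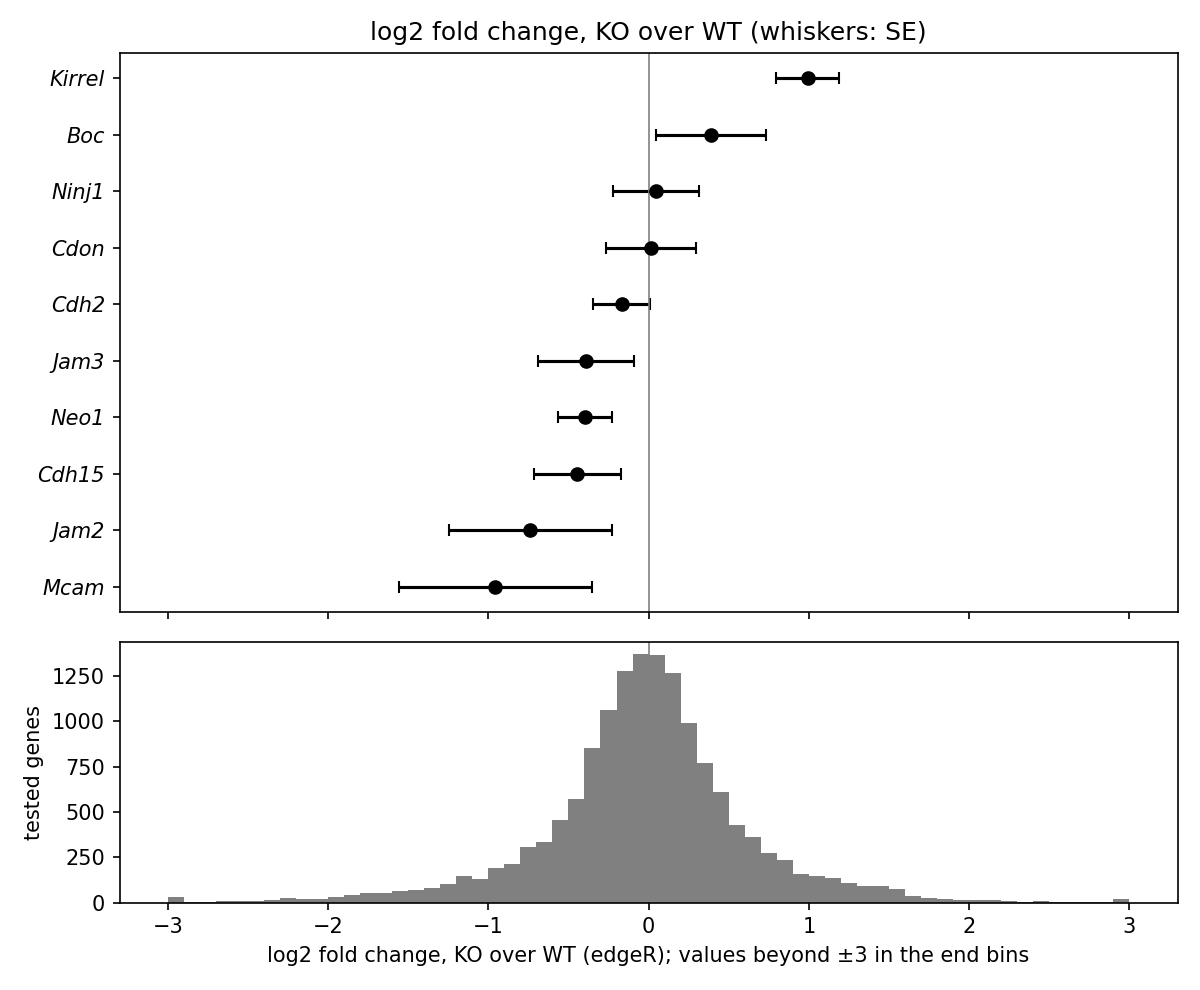
Upper panel: log2 fold change of each receptor gene, KO over WT, from edgeR, with whiskers of 1 SE. Lower panel: the number of tested genes at each log2 fold change. Kirrel stands at 0.99 and Mcam at -0.96, and Mcam and Jam2 have the widest whiskers.

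Both cadherins were abundant in both genotypes and neither passed the test. Cdh15 (chr8:122848374-122867397, GRCm38), which encodes the cadherin most typical of satellite cells and myoblasts, was at 879, 513 and 713 CPM in KO libraries and 693, 1094 and 1082 CPM in WT libraries. WT replicates 2 and 3 were the highest, but WT replicate 1 lay among the KO libraries. The log2 fold change was -0.45 (SE 0.27, adjusted p = 0.412, edgeR). Cdh2 (chr18:16588877-16809246), whose product is shared with neurons and heart muscle, was the steadiest of the 10: 818.3, 659.8 and 622.2 CPM in KO libraries and 838.6, 767.8 and 754.2 CPM in WT libraries. KO replicate 1 lay inside the WT range and the other KO libraries just below it. Its log2 fold change was -0.17 (SE 0.18, adjusted p = 0.643, edgeR), and its highest library stood 1.35 times above its lowest.

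Cdon, Boc and Neo1 encode structurally related receptors, and only the values of Neo1 separated by genotype. Cdon (chr9:35421528-35507652) was at 757.1, 439.4 and 734.1 CPM in KO libraries and 829.7, 517.2 and 560.8 CPM in WT libraries, so the groups interleaved. Its log2 fold change was 0.02 (SE 0.28, adjusted p = 0.982, edgeR). Boc (chr16:44485045-44558870), the partner of Cdon, was at 9.36, 13.96 and 6.72 CPM in KO libraries and 5.47, 9.14 and 8.36 CPM in WT libraries. The library labelled KO replicate 2 held its highest level, and the groups overlapped (log2 fold change 0.39, SE 0.34, adjusted p = 0.572, edgeR). Neo1 (chr9:58874679-59036614) was at 96.1, 88.2 and 68.8 CPM in KO libraries and 112.4, 120.4 and 100.8 CPM in WT libraries. Every KO library lay below every WT library, by a small gap between KO replicate 1 and WT replicate 3. The log2 fold change was -0.40 (SE 0.17, unadjusted p = 0.0480, adjusted p = 0.279, edgeR). Scaling by library totals alone gave -0.25 with an unadjusted p of 0.195, and the female-pattern libraries alone gave -0.24 with 0.247. With 1 library dropped in edgeR, the unadjusted p was 0.0360 when this was KO replicate 1, 0.0749 for the library labelled KO replicate 2 and 0.155 for KO replicate 3. It was 0.110, 0.126 and 0.0550 when WT replicate 1, 2 or 3 was dropped. DESeq2 gave 0.0615 and edgeR with no filter 0.0570, so Neo1 passed 0.05 without adjustment in only some settings.

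The junctional adhesion molecules had lower means in KO libraries, with groups that overlapped. Jam3 (chr9:27097384-27155421) was at 322.9, 269.0 and 175.2 CPM in KO libraries and 343.6, 432.7 and 229.0 CPM in WT libraries, and WT replicate 3 lay below 2 of the KO libraries. Its log2 fold change was -0.39 (SE 0.30, adjusted p = 0.517, edgeR). Jam2 (chr16:84774123-84826380) was at 97.4, 59.2 and 39.4 CPM in KO libraries and 54.9, 193.9 and 78.1 CPM in WT libraries. WT replicate 2 stood alone at the top, and the other WT libraries lay inside the KO range. The log2 fold change was -0.74 with all libraries (SE 0.51, adjusted p = 0.467, edgeR), and -0.02 without WT replicate 2.

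Mcam and Ninj1 showed no separation by genotype. Mcam (chr9:44134658-44142727), also called CD146 and expressed by endothelial cells and pericytes as well as by myogenic cells, was at 40.7, 45.9 and 22.7 CPM in KO libraries and 24.8, 45.9 and 141.5 CPM in WT libraries. A single library, WT replicate 3, carried the difference: the log2 fold change was -0.96 with all libraries (SE 0.60, adjusted p = 0.427, edgeR) and 0.06 without that library (adjusted p = 0.958, edgeR). With all libraries limma-voom gave -0.62. Endothelial markers in WT replicate 3 summed to 10.4 CPM, below the 12.0 CPM of WT replicate 2, and their range was 4.92 to 8.41 CPM in KO libraries and 7.58 to 12.0 CPM in WT libraries. Of the endothelial markers, 7 of 10 had a row in the table and Cdh5, Kdr, Cldn5 and Flt1 did not pass the filter on low counts. Vwf gave 69.2% of the endothelial sum. Pericyte and smooth muscle markers summed to 442 CPM in WT replicate 3 and 528 CPM in WT replicate 2, with Notch3 giving 71.7% of that sum. Abcc9 was lower in every KO library (log2 fold change -2.35, DESeq2 adjusted p = 0.00304). So was Vwf (log2 fold change -0.85, DESeq2 adjusted p = 0.140). Fold changes were positive for 1 and negative for 4 of the tested pericyte and smooth muscle markers, and positive for 1 and negative for 2 of the endothelial ones. Single genes of these lists peaked in different libraries. Tek (1.59 CPM), Cdh5 (0.529 CPM), Flt1 (0.159 CPM) and Vtn (0.582 CPM) were highest in WT replicate 3. Vwf (10.1 CPM), Abcc9 (282 CPM), Pdgfrb (16.0 CPM), Cspg4 (6.93 CPM), Myh11 (1.28 CPM) and Kdr (0.116 CPM) were highest in WT replicate 2. Rgs5 (31.6 CPM) and Cldn5 (0.388 CPM) peaked in WT replicate 1, Notch3 (352 CPM) in the library labelled KO replicate 2 and Pecam1 (2.88 CPM) in KO replicate 3. Vtn and Myh11 also did not pass the filter on low counts. The part of these cell types in the level of Mcam was not tested. Ninj1 (chr13:49187529-49196251), whose product binds itself between cells and also takes part in plasma membrane rupture, was at 11.8, 11.9 and 16.3 CPM in KO libraries and 10.2, 17.2 and 11.4 CPM in WT libraries. Its log2 fold change was 0.05 (SE 0.27, adjusted p = 0.943, edgeR).

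Kirrel (chr3:87078593-87174777) had the largest positive fold change of the 10 and the smallest p. It was at 130.5, 118.3 and 159.1 CPM in KO libraries and 78.6, 53.8 and 72.6 CPM in WT libraries, means of 136 ± 20.9 and 68.3 ± 13.0 CPM (SD, n = 3 each). The lowest KO library stood well above the highest WT library, and the spread within each group was close to that of the typical gene: a coefficient of variation of 15.4% in KO and 18.9% in WT, against medians of 15.7% and 16.8% over tested genes with a mean of at least 5 CPM. The log2 fold change was 0.99 (SE 0.20, unadjusted p = 0.00116, adjusted p = 0.138, edgeR), and 0.138 was also the smallest adjusted p of any gene in that test. DESeq2 gave 0.98 (SE 0.24) with an adjusted p of 0.00284, limma-voom gave an adjusted p of 0.153, and the authors' deposited table lists 0.93 with an adjusted p of 0.00304.

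Over 22 alternative settings the log2 fold change of Kirrel stayed between 0.84 and 1.13, with the call made in 7 of them, all from DESeq2 or the authors' deposited values. Without the library labelled KO replicate 2, whose Hdac11 level went against its label, it was 1.09 (adjusted p = 0.130 in edgeR and 0.00458 in DESeq2). In DESeq2 the call was lost without KO replicate 3 (log2 fold change 0.86, adjusted p = 0.0659). Among the female-pattern libraries alone it was 1.00 (adjusted p = 0.246, edgeR). The direction thus held in each setting run. Since the groups did not overlap, leaving out libraries could hardly have reversed it. The call depended on the test and, in DESeq2, on KO replicate 3.

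**Figure D3:**
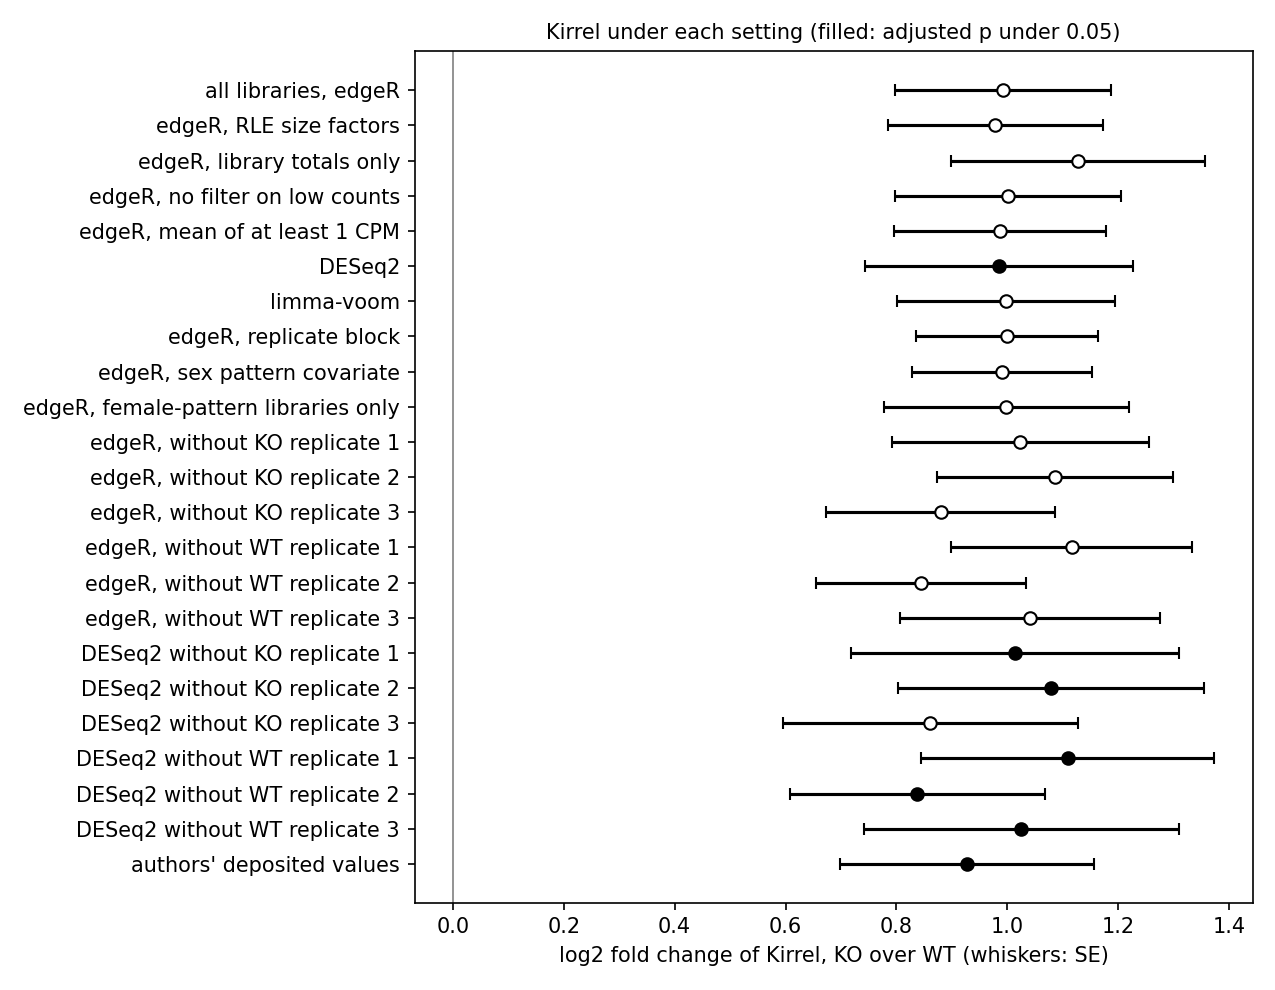
Log2 fold change of Kirrel, KO over WT, under each setting, with whiskers of 1 SE; filled points have an adjusted p under 0.05. All points lie between 0.84 and 1.13. The filled ones are those of the authors' deposited values and of DESeq2, except DESeq2 without KO replicate 3, which is open.

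The difference in Kirrel can also be written as a ratio to another receptor within a library, which needs no scaling between libraries. These ratios were computed after the values of Kirrel had been seen and restate the same difference. For every 100 counts of Cdh15 there were 14.9, 23.0 and 22.3 counts of Kirrel in KO libraries and 11.4, 4.92 and 6.71 in WT libraries. For every 100 counts of Cdh2 there were 16.0, 17.9 and 25.6 in KO libraries and 9.38, 7.01 and 9.63 in WT libraries. Against Boc, Jam2 and Mcam the ratio overlapped between the genotypes. As a share of the summed CPM per kilobase of the 10 genes, Kirrel made up 2.93% on average in KO libraries and 1.19% in WT libraries.

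The receptor genes differed in which libraries were high and low, with some libraries at the extreme of several genes. WT replicate 2 was the highest library for 5 of the 10 genes and KO replicate 3 the lowest for 5 of the 10. How often each library is highest or lowest over all tested genes was not counted, so these counts may not be particular to the receptors. Variation was widest for Mcam, with a coefficient of variation of 33.4% in KO and 87.8% in WT, and for Jam2, with 45.1% in KO and 68.4% in WT. Cell division genes (10 genes led by Top2a) summed to 1273, 1033 and 1625 CPM in KO libraries and 603, 343 and 520 CPM in WT libraries. Muscle differentiation genes (12 genes led by the embryonic myosin gene Myh3) summed to 27143, 13020 and 9484 CPM in KO libraries and 23455, 61735 and 49402 CPM in WT libraries. Kirrel ordered the 6 libraries exactly as the cell division sum did, from KO replicate 3 at the top to WT replicate 2 at the bottom, and no other receptor gene did so. How many of all tested genes share this order was not counted, so whether the match is particular to Kirrel was not tested. All KO libraries lay above all WT libraries for 13.2% of all tested genes, a looser match than the full order. No receptor gene followed the order of the differentiation sum, although its extremes, WT replicate 2 and KO replicate 3, were also those of Neo1, Jam2 and Jam3. Among markers of other cells, Col3a1, higher in every KO library, moved with the genotype difference in Kirrel. Erbb3, Abcc9 and Vwf, lower in every KO library, moved with that in Neo1. The other members of their lists did not all move the same way, as given above. The part of cell division, differentiation or other cell types in these differences was not tested.

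**Figure D4:**
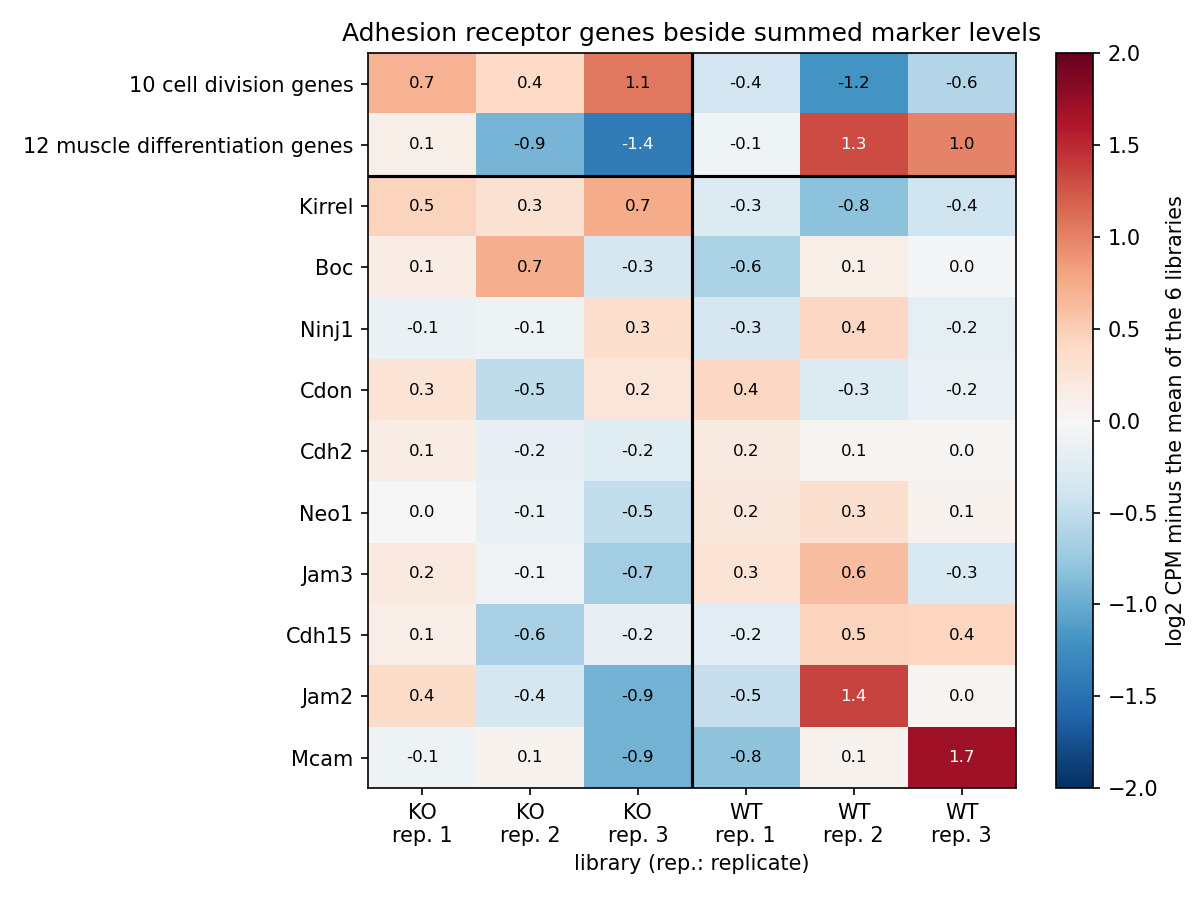
Log2 CPM of each receptor gene, and of the summed cell division and muscle differentiation genes, in each library, minus the mean of the 6 libraries (red above, blue below). The rows of Kirrel and of the cell division genes are positive in all 3 KO libraries and negative in all 3 WT libraries; Jam2 and Mcam each owe their strongest colour to a single WT library.

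Genes that act with the receptors were examined in 7 lists, none of which held a gene past an adjusted p of 0.05 in edgeR. The DESeq2 calls given below stand beside shares of 4.35% called higher and 2.28% called lower over all genes. The lists were chosen with earlier results of these data known, and no list was tested as a set. On the cadherin side, 9 of 10 catenins and cadherin partners were tested, 4 with a positive and 5 with a negative fold change (median log2 fold change -0.11), and DESeq2 called 1 lower. This was Plekha7, an adherens junction protein that binds p120 catenin, at 17.3, 14.5 and 11.3 CPM in KO libraries and 18.3, 115 and 66.8 CPM in WT libraries (log2 fold change -2.22, DESeq2 adjusted p = 0.00197). WT replicate 1 lay close to the KO libraries, so the size of the difference came from the other WT libraries. Trio, a guanine nucleotide exchange factor that works with M-cadherin, was at 233, 205 and 166 CPM in KO libraries and 234, 437 and 421 CPM in WT libraries (log2 fold change -0.85, DESeq2 adjusted p = 0.0537). Arvcf, a catenin of the p120 family, had a log2 fold change of -0.96 (adjusted p = 0.288, edgeR). Among 5 other cadherins that were tested, of 9 listed, no gene was called by either tool; Cdh13 (T-cadherin) had the smallest p, with a log2 fold change of -0.42 (adjusted p = 0.531, edgeR), and the median of the list was -0.28 in edgeR and 0.50 in limma-voom.

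Of 19 ligands and co-receptors of Cdon, Boc and neogenin, 12 were tested, 8 with a positive and 4 with a negative fold change (median 0.42 on the log2 scale). DESeq2 called 2 higher, Ntn4 and Hhip, and 1 lower, Hfe2. Ntn4, which encodes a netrin, was at 57.2, 35.3 and 72.8 CPM in KO libraries and 24.8, 22.2 and 18.6 CPM in WT libraries, without overlap (log2 fold change 1.33, DESeq2 adjusted p = 0.00182). Hhip, whose product binds and sequesters Hedgehog proteins, was at 6.97, 9.44 and 16.2 CPM in KO libraries and 2.33, 0.175 and 2.75 CPM in WT libraries (log2 fold change 2.62, DESeq2 adjusted p = 0.00586). Hfe2, which encodes hemojuvelin, a repulsive guidance molecule that binds neogenin, was at 146.9, 70.3 and 46.0 CPM in KO libraries and 159.7, 332.0 and 172.4 CPM in WT libraries, with a narrow gap between KO replicate 1 and WT replicate 1 (log2 fold change -1.33, DESeq2 adjusted p = 0.0466). Its relative Rgma was not called; it was at 55.8, 37.0 and 29.7 CPM in KO libraries and 55.1, 90.2 and 88.8 CPM in WT libraries (log2 fold change -0.93, DESeq2 adjusted p = 0.0517). All 11 signalling partners of Cdon and Boc were tested, 6 with a positive and 5 with a negative fold change (median 0.11), and DESeq2 called 1 higher. This was Tcf3, the E protein that pairs with MyoD, at 140, 140 and 193 CPM in KO libraries and 97.7, 78.3 and 97.3 CPM in WT libraries (log2 fold change 0.79, DESeq2 adjusted p = 0.0173). Mapk11, which encodes a p38 kinase, had a log2 fold change of 0.88 and Cdc42, a GTPase below Cdon, one of -0.34, with edgeR adjusted p-values of 0.265 and 0.318.

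Of 13 relatives and polarity partners of the junctional adhesion molecules, 11 were tested, 8 with a positive and 3 with a negative fold change (median 0.38), and DESeq2 called 2 higher and 1 lower. Both higher genes encode immunoglobulin-type proteins of cell contacts. Clmp was at 15.8, 24.1 and 19.9 CPM in KO libraries and 3.83, 7.22 and 9.21 CPM in WT libraries (log2 fold change 1.57, DESeq2 adjusted p = 0.00144). Cxadr, the coxsackievirus and adenovirus receptor, was at 61.3, 36.5 and 86.2 CPM in KO libraries and 27.3, 11.8 and 28.9 CPM in WT libraries (log2 fold change 1.43, DESeq2 adjusted p = 0.0173). The lower gene was Pard3, a polarity scaffold that binds junctional adhesion molecules, at 117, 117 and 83.7 CPM in KO libraries and 157, 191 and 168 CPM in WT libraries (log2 fold change -0.70, DESeq2 adjusted p = 0.0321).

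Around Kirrel, 16 of 19 nephrin family members and actin effectors were tested, 10 with a positive and 6 with a negative fold change (median 0.11), and DESeq2 called 1 lower. This was Elmo1, part of an exchange factor complex for Rac, at 6.47, 3.58 and 4.12 CPM in KO libraries and 10.1, 21.0 and 9.58 CPM in WT libraries (log2 fold change -1.52, DESeq2 adjusted p = 0.00824). Arf6, a small GTPase of membrane traffic, had a log2 fold change of 0.56 and Wipf1, which encodes a partner of WASP proteins, one of 1.15, with DESeq2 adjusted p-values of 0.147 and 0.0781. Of 14 other surface proteins of myoblast contact, 12 were tested, 4 with a positive and 8 with a negative fold change (median -0.26), and DESeq2 called 1 higher. This was Vcam1, the ligand of alpha4-integrin, at 138, 95.7 and 165 CPM in KO libraries and 77.3, 31.6 and 32.0 CPM in WT libraries (log2 fold change 1.50, DESeq2 adjusted p = 0.00762). Ncam1 and Cd164, adhesion proteins of myoblasts, had log2 fold changes of -1.14 and -0.93, with DESeq2 adjusted p-values of 0.0524 and 0.103.

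**Figure D5:**
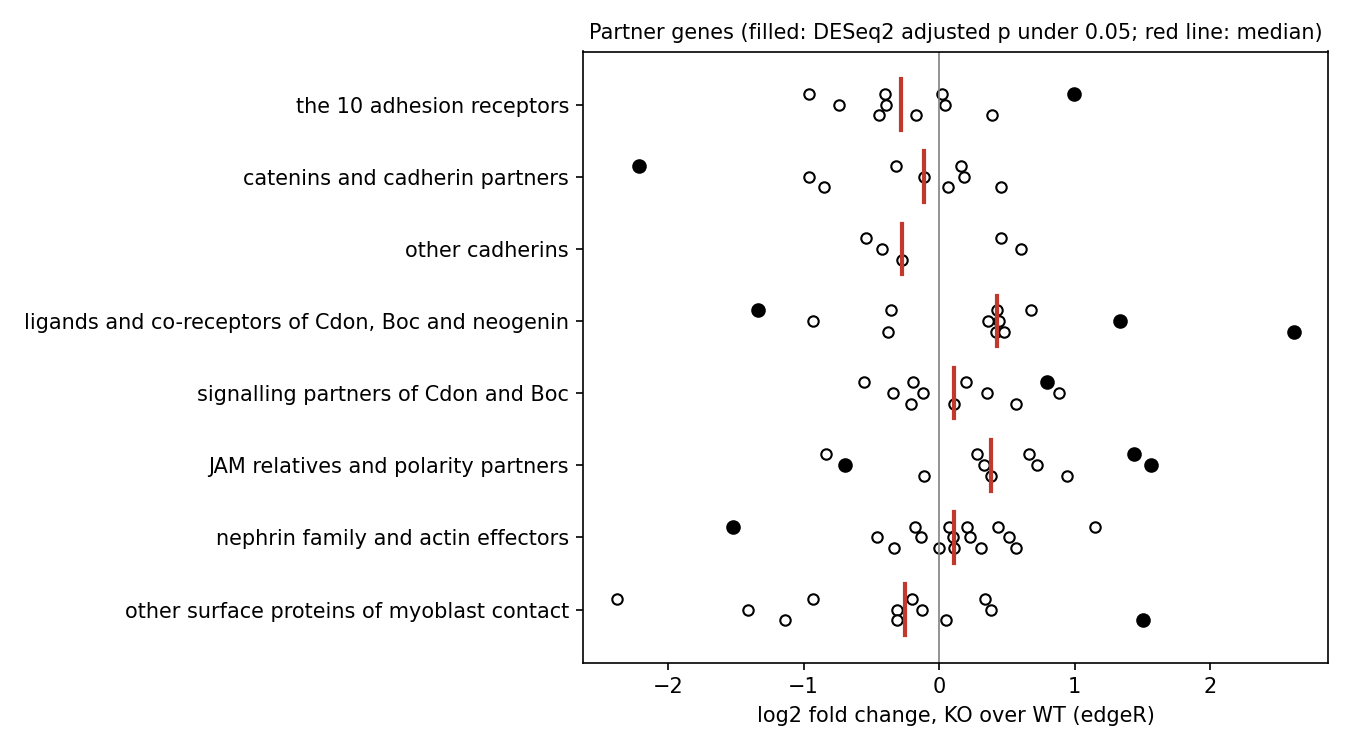
Log2 fold change, KO over WT (edgeR), of the 10 adhesion receptor genes and of the tested genes of each partner list; each point is a gene, filled where the DESeq2 adjusted p was under 0.05, and red lines are medians. Each list holds genes on both sides of 0, and the medians lie between -0.28 and 0.42.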

How the data were processed

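The deposited table gave, for 6 libraries, raw counts per gene symbol, normalized values made by the authors (a signal not used here), and the authors' log2 fold changes with standard errors and test statistics (scores of the authors' deposited comparison) and their deposited p-values and adjusted p-values. Per the submitters' processing notes, the tools were featureCounts, DESeq2, TopHat2 2.0.8, Bowtie2, Trimmomatic and FastQC and the build GRCm38; their settings, the strand handling and the annotation were not given in the sources used here. Groups and replicate numbers came from the labels. Counts of all 21778 genes were filtered with filterByExpr, which left 14835 genes, given TMM size factors, and compared by edgeR 4.0.16 (quasi-likelihood test, Benjamini-Hochberg adjustment over all tested genes, threshold 0.05) in R 4.3.3; the SE was derived from the F statistic. DESeq2 1.42.0, limma-voom (limma 3.58.1), other scalings and filters, a sex-pattern covariate and leaving out each library were alternatives. The scripts were tested on simulated data. Lengths are those of GENCODE vM1, an annotation of an older build used for length alone; gene positions and promoters are RefSeq, GRCm38, matched by symbol, with a promoter for 6 of the 10 receptor genes. The genes named are the 10 receptors, Hdac11, up to 3 tested genes of smallest edgeR p in each partner list and the leading markers. Hfe2, Pax7, Cd34, Ly6a, Mbp, Cdh5, Kdr, Cldn5, Flt1, Tek, Vtn, Pdgfrb, Cspg4, Myh11 and Rgs5 were named after their values were seen. The receptor genes, the lists and the tests were chosen with earlier results of these data known.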

Additional observations from a re-analysis of the deposited data

How the results depend on the processing

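The number of genes called depended on the test. EdgeR called 0 genes higher and 0 lower, DESeq2 called 615 higher and 322 lower, and the authors' deposited table holds 609 and 309; leaving out each library in turn gave 0 to 816 higher and 0 to 723 lower over both tools. Of the 10 receptor genes, 0 were called higher by edgeR and 1 (Kirrel) by DESeq2 and in the authors' deposited table, 0 to 1 with each library left out. At an unadjusted p under 0.05 there were 2 receptor genes, and 1 under library totals, no filter, DESeq2, the female-pattern libraries or the authors' values, and 1 to 4 with each library left out. The share over all tested genes was 17.7% in the edgeR comparison given above. It was not counted for any alternative, so the counts there have no background beside them. The replicate block, whose shared numbers did not pair the libraries (correlations of same-numbered deviations -0.28, -0.07 and 0.05), again called 0 genes and left 2 receptor genes at an unadjusted p under 0.05. Hdac11 ranged from -1.18 to -0.37 on the log2 scale with each library left out, and DESeq2 called it without the library labelled KO replicate 2 (adjusted p = 3.78e-05). The sign changed for Ninj1 (-0.24 in the female-pattern libraries, -0.12 to 0.31 with each library left out), Cdon (-0.12 to 0.27) and Mcam (-1.36 to 0.06, the highest without WT replicate 3: 0.058 in edgeR and 0.03 in DESeq2). Limma-voom gave Mcam -0.62, and turned the medians of the other cadherins (0.50, against -0.28 in edgeR) and of the pericyte markers (0.17, against -0.23). Scaling by library totals moved the median of all genes to 0.14. Of the comparisons of single genes with an alternative, 228 kept direction and call, 8 gained a call and 17 reversed; of the list medians, 276 moved by little and 76 by more. The cause was not tested. With 3 libraries a group, the log2 fold changes of Cdh2, Cdon and Ninj1 were each smaller in size than their SE in edgeR. The smallest difference that could be detected was not determined.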
